A study of Mus musculus with 12 samples.

Results

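Dlk1- Sca1+ fibroblasts, the subset that the series labels as pre-adipogenic and sorts without surface Dlk1, were compared with Dlk1+ reticular fibroblasts of the same newborn mouse skin. The comparison took the 6 of the 12 arrays whose population label names one of the 2 groups, 3 arrays a side, 1 from each of 3 female littermates aged 2 days, and ran across 17097 genes. Both groups came from dermis from which the layer beneath had been cut away, and both were gated as cells that carry Pdgfra and CD34 and lack CD45, CD117, CD31 and EpCam. Dlk1+ reticular cells additionally lacked CD26 and Sca1, and Dlk1- Sca1+ cells lacked CD26 and Dlk1. The labels name no engineered allele and no treatment, and they do not state the strain. The other 6 arrays held Dlk1+ Sca1+ cells, also named pre-adipogenic, and CD26+ papillary cells. They entered the fit for its estimate of the spread, and Dlk1+ Sca1+ values stand beside some results. A population of 4500 cells was lysed in bulk, so that fewer cells of a type and less RNA per cell cannot be told apart in any value below.

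The dermis of newborn mice is layered. Papillary fibroblasts lie under the epidermis and help to form hair follicles, reticular fibroblasts lie deeper and lay down much of the fibrillar matrix, and deeper still lies a lineage that gives rise to dermal adipocytes and to the fascia. Sca1, a small surface protein anchored by a lipid, marks many stromal progenitors, among them those of fat. Dlk1, also known as Pref-1, is a membrane protein of the Notch ligand family that restrains adipocyte formation and is lost as preadipocytes commit. Adipocyte formation is driven by the nuclear receptor Pparg together with factors of the C/EBP family.

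Levels are deposited log2 RMA values, so that a difference of 1 is a doubling. Array values are listed in the order of animals 1, 2 and 3. Differences are Dlk1- Sca1+ minus Dlk1+ reticular, with the standard error (SE) from limma and the animal as a block, and a gene is called at a Benjamini-Hochberg adjusted p under 0.05 over all genes. Means are given with the SD over 3 arrays. On the 6 arrays the gene median was 6.71 to 6.81, and the 23 control probe sets without a mouse target had medians of 4.03 to 4.07 and reached 6.59 at most. A gene with all 3 arrays of a population under 6.59 was not clearly above background there, so that its difference describes the RMA values and its fold is given only as a lower bound, from the mean of the brighter population against 6.59. No fold is given for other such genes. Under 6.59 in Dlk1- Sca1+ cells were, among others, Pgm5, Npas3, Ebf4, Cacng7, Adamtsl3, Bmp5, Smoc1, Tbx3, Acta1 and Tnnc2. So were Lef1, Col8a2, Col4a5, Vegfc, Kdr, Hgf, Plac8 and Myh11. Under 6.59 in reticular cells were Serpina3n, Rxrg, Car3 and Hpgd. The difference between 3' and 5' probe sets, a sign of RNA quality, ran from -0.46 to -0.39 for Actb and from -0.06 to 0.03 for Gapdh. One array stood furthest apart. In the Dlk1- Sca1+ array of animal 1, 166 genes were at least 1 log2 unit above both other arrays of that population, against 0 and 2 genes in the arrays of animals 2 and 3. The reticular array of animal 1 had 28 such genes against its own population, and those of animals 2 and 3 had 4 and 0. Among them were 24 keratinocyte markers in the Dlk1- Sca1+ array and 10 in the reticular array of animal 1, which are described near the end.

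The transcript of the gene that separates the gates differed as sorted. Dlk1 was at 11.18, 11.45 and 11.54 in Dlk1- Sca1+ cells and at 12.96, 13.04 and 12.90 in reticular cells. All 3 Dlk1- Sca1+ arrays lay below all 3 reticular arrays, with a difference of -1.58 ± 0.08, a 2.98-fold difference (adjusted p = 6.91e-07). Because the gate used the Dlk1 protein, this checks the labels and is no finding. The transcript was nevertheless well above the control probe sets in cells sorted as lacking the protein. The genes that both gates shared did not pass. Cd34 differed by -0.00 ± 0.10 (95% interval -0.21 to 0.21), Pdgfra by 0.19 ± 0.17 and Dpp4, which encodes CD26, by 0.08 ± 0.19. Of the genes for markers sorted against, Ptprc was at 3.81 to 4.03 on the 6 arrays, within the range of the control probe sets, whereas Pecam1, the gene for CD31, was at 7.46 to 8.06. Ly6a, which encodes Sca1, was not analysed here.

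Many genes differed, most of them by little. Of 17097 genes tested, 4110 were called (24.0%), 2064 higher (12.1%) and 2046 lower (12%) in Dlk1- Sca1+ cells. The median size was 0.43 among called genes, and 465 called genes differed by 1 or more, 186 higher and 279 lower. The widest gaps were more often deficits, with 45 genes lower and 29 higher by 2 or more. Of all genes tested, 48.6% had the same sign of the difference in each of the 3 animals. Over genes, which are not independent replicates, the differences correlated at 0.765 between animals 1 and 2, 0.712 between animals 1 and 3 and 0.783 between animals 2 and 3. The 3 arrays of one population lay wholly above or below the 3 of the other for 3672 called genes (21.5% of those tested), and for 4976 genes called or not (29.1%). Without the Dlk1- Sca1+ array of animal 1, 3379 genes were called (19.8%), 1711 higher (10%) and 1668 lower (9.76%), of which 3152 were among the 4110. Without the animal as a block 3104 were called (18.2%), 1600 higher (9.36%) and 1504 lower (8.8%). Leaving out animal 2 or animal 3 left 2442 and 2446 genes.

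**Figure D1:**
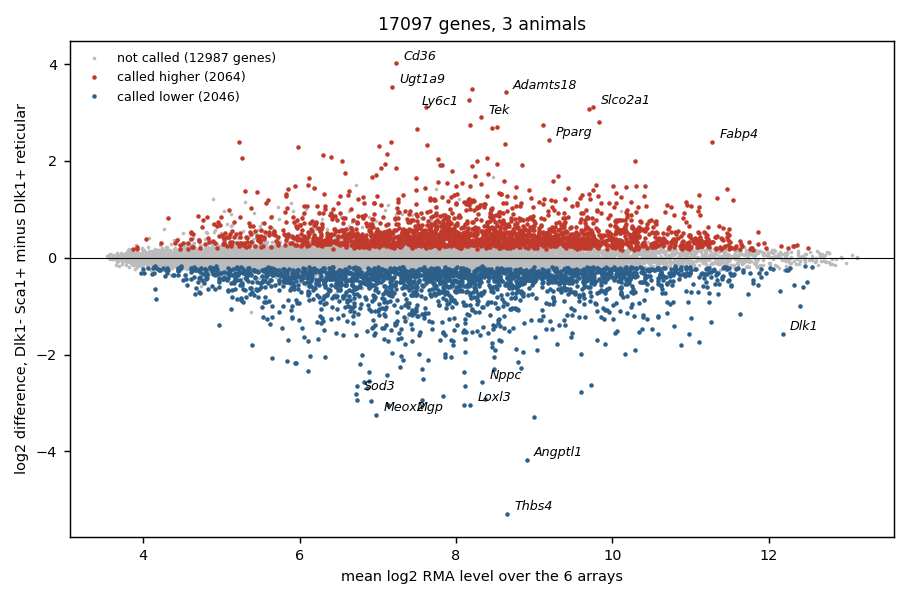
Each point is 1 of 17097 genes, with its mean log2 RMA level over the 6 arrays on the x axis and its log2 difference, Dlk1- Sca1+ minus Dlk1+ reticular, on the y axis. Red points are the 2064 genes called higher, blue points the 2046 called lower and grey points those not called. Cd36 at 4.02 and Thbs4 at -5.29 are the outermost named genes.

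Adamts18, Slco2a1, Tek and Thbs4 mark the 2 ends of the comparison. Each is shown with the 250 bases of genome before its transcription start, from RefSeq on GRCm38.p6, because these genes separate the populations widely, and Cyp1b1 is added as a textbook target of the aryl hydrocarbon receptor. Capitals mark 2 searched motifs on either strand, TATAAA, a core promoter element, and GCGTG, the core of the site bound by the aryl hydrocarbon receptor, where CACGC is the same site on the other strand. The motifs do not overlap each other.
Adamts18: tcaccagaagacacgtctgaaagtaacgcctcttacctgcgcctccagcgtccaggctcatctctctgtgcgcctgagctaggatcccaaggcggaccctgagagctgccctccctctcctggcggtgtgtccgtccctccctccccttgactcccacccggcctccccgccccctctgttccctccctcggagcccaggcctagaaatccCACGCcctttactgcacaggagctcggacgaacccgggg
Slco2a1: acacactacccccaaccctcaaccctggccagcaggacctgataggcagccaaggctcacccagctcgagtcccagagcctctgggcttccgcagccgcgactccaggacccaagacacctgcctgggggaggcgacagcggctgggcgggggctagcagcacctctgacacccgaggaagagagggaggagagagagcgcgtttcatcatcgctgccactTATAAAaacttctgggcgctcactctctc
Tek: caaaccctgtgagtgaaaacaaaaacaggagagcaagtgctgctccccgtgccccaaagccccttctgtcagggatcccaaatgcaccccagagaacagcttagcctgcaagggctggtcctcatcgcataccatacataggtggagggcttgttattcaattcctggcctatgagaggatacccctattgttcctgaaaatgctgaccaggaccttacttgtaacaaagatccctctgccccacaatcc
Thbs4: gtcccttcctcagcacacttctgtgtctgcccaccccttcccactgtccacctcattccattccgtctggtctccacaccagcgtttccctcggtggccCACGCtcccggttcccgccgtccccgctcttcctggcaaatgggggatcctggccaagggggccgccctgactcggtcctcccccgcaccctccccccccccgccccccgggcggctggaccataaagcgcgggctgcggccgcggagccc
Cyp1b1: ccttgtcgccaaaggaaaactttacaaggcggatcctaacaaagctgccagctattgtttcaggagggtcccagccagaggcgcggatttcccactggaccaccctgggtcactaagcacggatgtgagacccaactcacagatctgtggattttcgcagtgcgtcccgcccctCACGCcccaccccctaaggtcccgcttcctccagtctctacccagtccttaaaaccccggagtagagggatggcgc

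The windows lie at chr8:113848840-113849089 on the minus strand for Adamts18, chr9:103008237-103008486 on the plus strand for Slco2a1, chr4:94739039-94739288 on the plus strand for Tek, chr13:92794819-92795068 on the minus strand for Thbs4 and chr17:79715062-79715311 on the minus strand for Cyp1b1. A TATAAA match stands 29 to 24 bases before the start of Slco2a1. GCGTG matches, each on the other strand, stand 39 to 35 bases before the start of Adamts18, 76 to 72 before that of Cyp1b1 and 151 to 147 before that of Thbs4, and the Tek window holds neither motif. Of 32851 such windows of 27025 genes, 12.4% hold TATAAA and 28.2% hold GCGTG. Among the 15 genes with the largest differences in each direction, 14 of those higher had 15 windows, of which 2 (13.3%) held TATAAA and 5 (33.3%) held GCGTG. Of those lower, 12 genes had 12 windows, of which 1 (8.33%) held TATAAA and 2 (16.7%) held GCGTG. A match describes letters in the window and not binding.

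Thbs4 encodes thrombospondin 4, a secreted matrix glycoprotein of tendon and muscle attachments. Its level was 6.07, 6.28 and 5.66 in Dlk1- Sca1+ cells and 11.10, 11.53 and 11.26 in reticular cells. Every reticular array was high, and the Dlk1- Sca1+ arrays lay within the range of the control probe sets. The difference was -5.29 ± 0.15 (adjusted p = 3.61e-08), at least 26.1-fold lower.

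Adamts18, a secreted metalloprotease that acts on the extracellular matrix, was at 10.46, 10.42 and 10.15 in Dlk1- Sca1+ cells and at 6.47, 7.18 and 7.12 in reticular cells. The groups stood far apart, with a difference of 3.42 ± 0.15 (10.7-fold, adjusted p = 2.01e-07), and all 3 of its probe sets were called. Slco2a1 encodes the transporter that carries prostaglandins into cells for breakdown. It was at 11.21, 11.48 and 11.24 against 8.20, 8.33 and 8.07, and differed by 3.11 ± 0.08 (8.63-fold, adjusted p = 2.07e-08), also on all 3 probe sets. Tek, the receptor of the angiopoietins known best from endothelium, was at 9.77, 9.68 and 9.86 against 6.99, 6.87 and 6.74, a difference of 2.90 ± 0.11 (7.48-fold, adjusted p = 7.8e-08). For each of these genes the lowest Dlk1- Sca1+ array lay above the highest reticular array.

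Among the 15 genes with the largest differences higher in Dlk1- Sca1+ cells were surface receptors, a water channel and enzymes. Cd36, a fatty acid and scavenger receptor, was at 9.42, 9.20 and 9.12 in Dlk1- Sca1+ cells and at 5.26, 5.35 and 5.08 in reticular cells. Its reticular level was thus within the range of the control probe sets, and its difference was 4.02 ± 0.14 (adjusted p = 6.69e-08), at least 6.31-fold higher. Ly6c1, a surface protein of the same family as Sca1, was higher by 3.26 ± 0.12 (9.60-fold), and its probe set cannot be told apart from near-identical copies of the gene. Bmper, a secreted protein that binds and modulates BMPs, was higher by 3.10 ± 0.14 (at least 5.99-fold). Aqp1, a water channel of capillaries and many epithelia, was at 10.54, 10.67 and 10.24 against 7.72, 7.75 and 7.73. Lgals3, which encodes galectin 3, was higher by 2.74 ± 0.15, Efemp1, which encodes fibulin 3, by 2.70 ± 0.11, Fam78b by 2.67 ± 0.23 and the protease inhibitor gene Serpina3n by 2.65 ± 0.14. The 15 leading genes in this direction had adjusted p-values of 1.6e-05 or less and kept their call without any 1 array or animal. Because they were picked for large differences on these same arrays, this is no separate support.

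In the other direction, Angptl1, a secreted relative of the angiopoietins, was at 6.88, 6.66 and 6.91 in Dlk1- Sca1+ cells and at 11.00, 11.14 and 10.83 in reticular cells. All reticular arrays were high, and the difference was -4.17 ± 0.13 (18.0-fold, adjusted p = 5.92e-08). Capn6, a calpain without protease activity that stabilizes microtubules, differed by -3.30 ± 0.12 (9.83-fold). Mgp, a secreted inhibitor of calcification, was at 6.58, 6.51 and 6.64 against 9.68, 9.83 and 9.36 (8.26-fold). Loxl3, a lysyl oxidase that cross-links collagen and elastin, was at 6.70, 6.62 and 6.68 against 9.58, 9.83 and 9.69 (8.19-fold). Both were uniformly low in Dlk1- Sca1+ cells. Itga8, an integrin subunit of mesenchyme, was at 5.26, 5.26 and 5.29 against 8.28, 7.76 and 8.58 (at least 3.07-fold), and its Dlk1- Sca1+ level was within the control range. Pgm5, a protein of muscle adhesion sites, differed by -3.04 ± 0.11, the transcription factor genes Npas3 and Ebf4 by -2.96 ± 0.16 and -2.69 ± 0.14, the kinase gene Nrk by -2.92 ± 0.16, and Cacng7, a subunit associated with ion channels, by -2.86 ± 0.13. Tm4sf1, a membrane protein, was the least even of the 15 leading genes. It was at 9.74, 7.35 and 7.54 against 10.98, 11.11 and 10.83, with the array of animal 1 raised, and differed by -3.62 without that array. Its difference of -2.76 ± 0.55 (adjusted p = 0.00407) was not called without animal 3 (adjusted p = 0.0839).

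**Figure D2:**
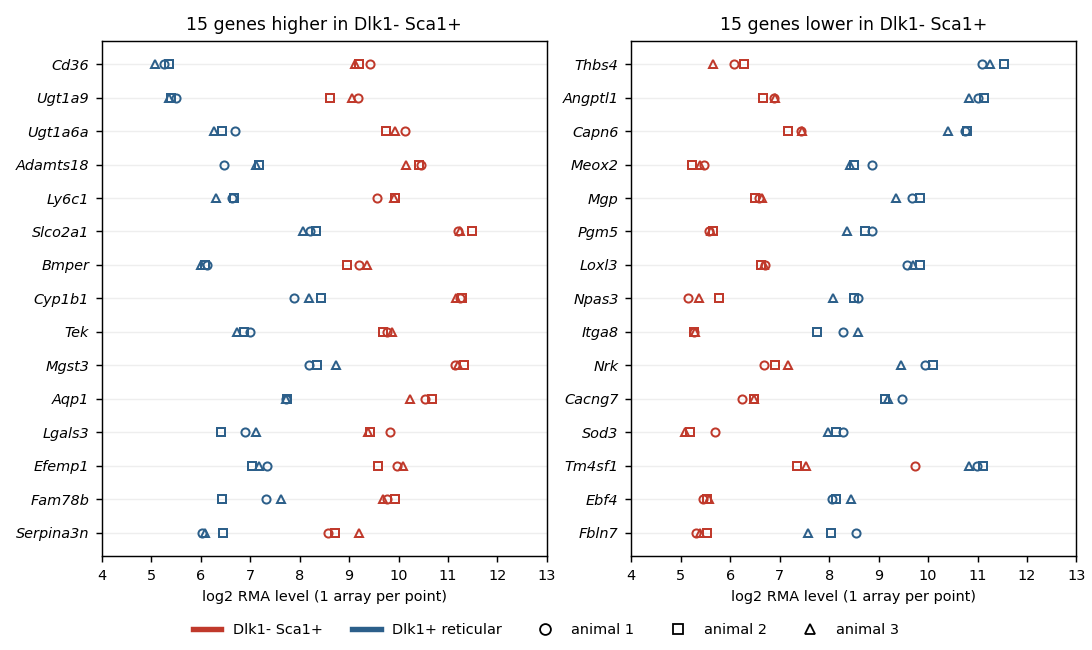
Points are log2 RMA levels, 1 array each, of the 15 called genes with the largest differences higher (left) and lower (right) in Dlk1- Sca1+ cells, red for Dlk1- Sca1+ and blue for Dlk1+ reticular, with a symbol per animal. The red and blue points are apart for each of the 30 genes, and Tm4sf1 shows 1 red point, of animal 1, at 9.74 above the others at 7.35 and 7.54.

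Pparg, Cebpa and several fatty acid handling genes were higher in Dlk1- Sca1+ cells. Of 28 measured adipogenic transcription factors, 10 were higher and 5 lower (53.6% called, against 24.0% of all genes), with a median difference of 0.15 against -0.01 over all genes. Only 3 of the 28 were under 6.59 on all 6 arrays. Brighter genes were called more often. When genes with a mean level under 6.75 were left out, 3561 of the remaining 8550 were called. The share of 24.0% is thus a low yardstick for this and later lists of mostly bright genes. Pparg was at 10.37, 10.37 and 10.46 in Dlk1- Sca1+ cells and at 7.78, 8.09 and 8.03 in reticular cells. The groups were more than 2 log2 units apart, with a difference of 2.43 ± 0.09 (5.4-fold, adjusted p = 7.46e-08). Cebpa, its partner in late adipocyte formation, was higher by 0.95 ± 0.07 (1.93-fold), and Rxrg, a receptor that pairs with Pparg, by 0.92 ± 0.11. Cebpd differed by -0.81 ± 0.12 and Zfp521, a restrainer of adipocyte fate, by -0.75 ± 0.12, and Ebf3 by -1.56 ± 0.13 (2.95-fold). Cebpb differed by 0.10 ± 0.09, Zfp423, a determinant of preadipocytes, by 0.27 ± 0.12 (95% interval 0.00 to 0.54) and Ebf2 by -0.04 ± 0.14, and none of these 3 passed.

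In the list of lipid uptake and adipocyte products, 10 of 25 measured genes were higher and 1 was lower (44.0% called, median 0.14, and 9 higher and 2 lower without the Dlk1- Sca1+ array of animal 1). Fabp4, a fatty acid binding protein of adipocytes and capillaries, was at 12.46, 12.51 and 12.44 against 10.12, 10.27 and 9.85, a difference of 2.39 ± 0.31 (5.24-fold, adjusted p = 0.000266). Lpl, the lipase that frees fatty acids from lipoproteins, was higher by 1.41 ± 0.10 (2.66-fold), Plin2, a coat protein of lipid droplets, by 1.39 ± 0.07, Fabp5 by 1.08 ± 0.08 and Car3, a carbonic anhydrase of fat and muscle, by 1.86 ± 0.22. Car3 was called on 2 of its 4 probe sets. The hormone genes Adipoq and Lep were dim. Adipoq was at 5.69, 5.04 and 5.52 against 4.45, 4.61 and 4.65, and was called higher by 0.85 ± 0.13, but both groups were within the range of the control probe sets. Lep was at 4.44 to 4.65 and at 4.33 to 4.69, with a difference of 0.01 ± 0.08 that did not pass.

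Enzymes that modify foreign compounds, steroids and retinoids differed in both directions. Ugt1a9 and Ugt1a6a, which attach glucuronic acid to drugs and steroids, were higher by 3.54 ± 0.13 (at least 5.15-fold, with the reticular arrays of Ugt1a9 within the control range) and 3.48 ± 0.09 (11.1-fold). These are products of 1 locus that share exons, and their values are not independent. Cyp1b1, a cytochrome P450 that oxidizes steroids and polycyclic compounds, was at 11.24, 11.29 and 11.16 in Dlk1- Sca1+ cells and at 7.88, 8.44 and 8.18 in reticular cells, a difference of 3.06 ± 0.11 (8.36-fold, adjusted p = 6.69e-08). Ahr, the gene of the aryl hydrocarbon receptor, differed by -0.68 ± 0.13 (adjusted p = 0.00323, and 0.0622 without animal 3). The reductase gene Nqo1 was at 4.66 to 4.88 and 4.85 to 5.0, within the control range, and did not pass (-0.15 ± 0.06). Activity of the receptor was not tested. Aldh1a1, which makes retinoic acid, differed by -1.22 ± 0.15, Rarres1, a gene induced by retinoids, by -1.35 ± 0.16, and the retinol carrier gene Rbp4 by 1.05 ± 0.11. Over the whole list 9 of 44 genes were higher and 13 lower (50% called, median -0.02).

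Genes that neutralize oxidants were split. Of 20 measured antioxidant genes, 7 were higher and 4 lower (55.0% called, median 0.12). Those higher included Hmox1, which degrades haem, at 11.08, 10.85 and 10.96 against 9.99, 9.83 and 9.87 (1.07 ± 0.06). Gsr, glutathione reductase, was higher by 1.02 ± 0.08 and Cat, catalase, by 0.82 ± 0.06. The 2 largest deficits were in secreted enzymes. Sod3, the extracellular superoxide dismutase, was at 5.70, 5.18 and 5.09 against 8.27, 8.14 and 7.98 (-2.81 ± 0.11, at least 2.91-fold), and Gpx3, the secreted glutathione peroxidase, differed by -1.72 ± 0.29. Mgst3, a membrane enzyme that conjugates glutathione and is outside that list, was at 11.15, 11.32 and 11.20 against 8.18, 8.35 and 8.74 (6.96-fold). The cholesterol synthesis list had 8 of 19 genes higher and none lower (42.1% called, median 0.24), led by Idi1 (1.13 ± 0.09), Fdps (0.86 ± 0.13) and Ebp (0.84 ± 0.09).

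Prostaglandin handling differed at several steps. Of 22 measured genes, 7 were higher and 3 lower (45.5% called, median 0.05). In Dlk1- Sca1+ cells the importer gene Slco2a1 was joined by Hpgd, the enzyme that inactivates prostaglandins, at 7.35, 7.34 and 7.62 against 5.97, 6.07 and 6.53 (1.25 ± 0.14). Ptges, which makes prostaglandin E2, was higher by 1.06 ± 0.11 and its receptor gene Ptger3 by 1.93 ± 0.10 (at least 2.78-fold). Ptgis, the synthase of prostacyclin, was at 5.69, 5.60 and 5.82 against 8.00, 8.19 and 8.01. The difference was -2.36 ± 0.13 (adjusted p = 7.77e-07), at least 2.78-fold. Ptgs2, a cyclooxygenase, and Ptgfrn were also lower, by differences of -0.71 and -0.54.

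Matricellular proteins were lower as a group, in that 0 of 21 measured members were higher and 14 lower (66.7% called, median -0.75). These are secreted proteins that tune how cells and matrix interact. After Thbs4 and Mgp came Fbln7, a fibulin, at 5.31, 5.52 and 5.38 against 8.55, 8.04 and 7.58 (-2.65 ± 0.18, at least 2.76-fold). Spock2, a proteoglycan, differed by -2.06 ± 0.11, the calcium-binding proteins Smoc2 and Smoc1 by -1.99 ± 0.09 and -1.71 ± 0.15, and Sparcl1, a relative of osteonectin, by -1.90 ± 0.12. Elastic fibre genes were also mostly lower, with 12 of 20 lower and 4 higher (80% called, median -0.50). After Loxl3, the largest deficits in that list were in Emilin1 (-1.28 ± 0.14) and Fbln1 (-1.16 ± 0.08). Efemp1, a fibulin that is in this list, went the other way.

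Little difference was measured in the main fibrillar collagens. Col1a1 was at 13.06, 13.16 and 13.14 against 13.09, 13.16 and 13.13, with a 95% interval for the difference of -0.12 to 0.11, and Col3a1 had an interval of -0.12 to 0.12. Both lie near the top of the scale, where an array can saturate, and Col1a2, at 9.32 to 9.45 and 9.27 to 9.50, had an interval of -0.17 to 0.17. Of 23 measured fibrillar and associated collagen genes, 3 were higher and 9 lower (52.2% called, median -0.12). Col14a1, which coats collagen fibrils, differed by -1.73 ± 0.09 (3.32-fold), and Col8a2 and Col27a1 by -1.27 ± 0.19 and -1.23 ± 0.14. Col18a1 and Col15a1, the multiplexins found beside basement membranes, were higher by 1.28 ± 0.09 and 1.18 ± 0.14. The basement membrane list had 2 of 20 genes higher and 6 lower (40% called, median -0.16), among them Lamc3, a laminin chain (-1.81 ± 0.14), and Col4a5 (-1.68 ± 0.16). Of 15 small leucine-rich proteoglycans, 1 was higher, Prelp (1.35 ± 0.16), and 7 lower (53.3% called, median -0.13), among them Ogn (-1.02 ± 0.10) and Podn (-0.78 ± 0.07).

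Proteases of the matrix moved in both directions. In the list of ADAMTS, ADAM, MMP and TIMP genes, 11 of 43 were higher and 13 lower (55.8% called, median -0.05). Adamts9, which cleaves versican, was higher beside Adamts18, at 10.63, 10.70 and 10.86 against 9.45, 9.49 and 9.50 (1.25 ± 0.07). Mmp16, a membrane-bound metalloprotease, was at 7.5, 7.70 and 7.86 against 9.99, 10.05 and 9.85 (-2.28 ± 0.10, 4.85-fold), and Adamtsl3, an ADAMTS relative without a protease domain, differed by -2.17 ± 0.28. In the tendon, cartilage and bone list, 2 of 19 genes were higher and 5 lower (36.8% called, median -0.04). Tnmd, tenomodulin of tendon, was higher by 1.13 ± 0.19, opposite to Thbs4.

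The angiopoietin receptor gene Tek was higher in Dlk1- Sca1+ cells, and the ligand genes Angpt2 and Angpt1 were lower. Angpt2, an angiopoietin that can block Tek signalling, was at 6.82, 7.07 and 6.88 against 8.15, 8.02 and 7.91 (-1.10 ± 0.09), with 1 of its 2 probe sets called, and Angpt1, the activating ligand, differed by -0.56 ± 0.12 (adjusted p = 0.00638, and 0.0585 without animal 2). Vegfc, a growth factor of lymphatic vessels, differed by -0.92 ± 0.14. Over the angiopoietin and VEGF list 3 of 18 genes were higher and 8 lower (61.1% called, median -0.21). Tie1, the partner receptor of Tek, was at 4.84 to 5.05 and 4.97 to 5.19, within the control range, and did not pass (-0.11 ± 0.15).

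Natriuretic peptide signalling showed one large deficit. Nppc, which encodes C-type natriuretic peptide, was at 6.99, 7.22 and 6.95 in Dlk1- Sca1+ cells and at 9.78, 9.71 and 9.38 in reticular cells, a difference of -2.57 ± 0.12 (5.94-fold, adjusted p = 3.2e-07). Its receptor gene Npr2 did not pass, with a 95% interval of -0.11 to 0.19. Npr1, the receptor of the cardiac peptides, was higher by 0.68 ± 0.08, and Prkg1, the cGMP-dependent kinase downstream, differed by -0.64 ± 0.10. Npr1 was at 6.35, 6.34 and 6.35 against 5.54, 5.82 and 5.64, within the control range in both groups. Prkg1 was within that range in Dlk1- Sca1+ cells, at 5.88, 6.21 and 6.06. The list had 1 of 11 genes higher and 3 lower (36.4% called, median 0.04). Among 42 water and ion channel genes, 3 were higher and 12 lower (35.7% called, median -0.10, and 2 higher and 8 lower without the animal as a block). On all 6 arrays 24 of the 42 were under 6.59. Kcnj8, a potassium channel subunit of mural cells and some fibroblasts, was at 5.52, 5.69 and 5.40 against 8.35, 8.23 and 7.72 (-2.56 ± 0.12, at least 2.85-fold).

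In the TGF-beta and BMP list, 17 of 45 genes were lower and 8 higher (55.6% called, median -0.10). The 3 largest deficits were in ligand or ligand subunit genes. Gdf10 was at 7.02, 6.77 and 6.98 in Dlk1- Sca1+ cells and at 9.16, 9.30 and 9.36 in reticular cells (-2.35 ± 0.19, 5.10-fold). Inhba, an activin subunit, differed by -2.11 ± 0.24, with 1 of its 2 probe sets called. Bmp5 and Bmp4 differed by -2.03 ± 0.19 and -1.72 ± 0.20. Bmp6 was the exception among the BMPs named here, at 8.63, 8.97 and 8.97 against 7.22, 7.38 and 7.32 (1.55 ± 0.09, 2.93-fold). Tgfbi, a matrix protein induced by TGF-beta, differed by -1.78 ± 0.10.

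Wnt genes held a pair of closely related ligands on opposite sides. Wnt5a was at 7.33, 7.41 and 7.63 in Dlk1- Sca1+ cells and at 10.12, 8.94 and 9.49 in reticular cells (-2.06 ± 0.20, 4.17-fold), and Wnt5b was at 7.41, 7.31 and 7.59 against 5.21, 5.35 and 5.52 (2.08 ± 0.12, at least 1.8-fold). The arrays of the 2 populations overlapped for neither ligand. Lgr4, a receptor of the R-spondins, was higher by 1.47 ± 0.15, and Nkd2, an inhibitor within the pathway, and Lef1, its nuclear effector, differed by -1.78 ± 0.11 and -1.28 ± 0.24. Axin2, a common target gene, did not pass (-0.32 ± 0.12). The list as a whole had 8 of 52 genes higher and 15 lower (44.2% called, median -0.05). In the Notch list, 1 of 20 genes was higher and 7 lower (40% called, median -0.06), with the receptor gene Notch3 (-1.29 ± 0.12) and the target gene Hey2 (-0.81 ± 0.06) among the lower. Hey2 was at 5.17, 5.14 and 5.16 against 5.92, 5.93 and 6.06, within the control range in both groups. In the Hedgehog list, 3 of 14 were higher and 5 lower (57.1% called, median -0.14). Hhip, which captures the ligand, was higher by 1.14 ± 0.09 and the receptor and target gene Ptch1 by 0.39 ± 0.06, while the co-receptor genes Boc and Gas1 differed by -0.96 ± 0.07 and -0.89 ± 0.08. Boc was called on 1 of its 2 probe sets.

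In the FGF list, which holds ligands, receptors and feedback inhibitors, 3 of 28 genes were higher and 12 lower (53.6% called, median -0.14). Fgf7, which acts on epithelium, was at 6.72, 6.70 and 6.74 against 8.37, 8.31 and 8.29 (-1.60 ± 0.09, 3.04-fold), and the feedback inhibitors Spry1 and Spry2, which are induced by FGF signalling, differed by -1.39 ± 0.08 and -1.31 ± 0.09. Fgfr2 was higher by 1.14 ± 0.08. None of 17 insulin-like growth factor genes was higher and 8 were lower (47.1% called, median -0.39), with Igf1 at 10.15, 10.11 and 10.14 against 11.10, 11.43 and 11.27 (-1.13 ± 0.09). In the list of PDGF, angiotensin and endothelin signalling, which also holds genes of GDNF and HGF, 4 of 21 were higher and 10 lower (66.7% called, median -0.29). Gfra1, the co-receptor of GDNF, was at 9.06, 9.64 and 8.79 against 11.28, 11.31 and 10.85 (-1.98 ± 0.13), and Hgf, Pdgfrl and the angiotensin receptor gene Agtr2 differed by -1.45 ± 0.16, -1.24 ± 0.10 and -1.22 ± 0.11.

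Of 20 measured genes listed for the papillary dermis, 3 were higher and 12 lower in Dlk1- Sca1+ cells (75% called, median -0.82). Col26a1 was at 6.48, 6.98 and 6.94 against 9.65, 9.15 and 9.52 (-2.64 ± 0.16, 6.23-fold), Col23a1 differed by -1.53 ± 0.10 and Prdm1, a transcription factor of early papillary cells, by -1.45 ± 0.21. Prdm1 was at 6.52, 6.03 and 6.03 in Dlk1- Sca1+ cells, under 6.59, and at 7.24, 7.49 and 8.21 in reticular cells. In the CD26+ papillary cells of this series Prdm1 was also under 6.59, at 6.04, 6.18 and 6.27, so that here it did not mark them. The dermal papilla list had 4 of 21 genes higher and 10 lower (66.7% called, median -0.25), and it shares Wnt5a, Inhba, Bmp4 and Fgf7 with the lists above. Genes listed for fascia and adventitia were split, with 6 of 19 higher and 8 lower (73.7% called, median -0.15). The higher ones included Ly6c1, Bmper, Efemp1 and Cd55, a regulator of complement (1.99 ± 0.12). Plac8 was at 5.39, 5.92 and 6.06 against 7.32, 7.65 and 8.42 (-2.01 ± 0.23).

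Transcription factors of dermal mesenchyme were rarely higher. Of 52 measured, 2 were higher and 22 lower (46.2% called, median -0.18). Meox2, a homeobox factor of mesoderm, was at 5.47, 5.23 and 5.38 in Dlk1- Sca1+ cells, within the control range, and at 8.87, 8.51 and 8.43 in reticular cells (-3.24 ± 0.12, at least 4.04-fold, adjusted p = 6.81e-08). Tbx3 differed by -1.51 ± 0.14, Tcf4 by -1.27 ± 0.08 and Meis2 by -1.08 ± 0.08. Twist2 and Prrx1, which mark dermal fibroblasts in general, did not pass (0.18 ± 0.06 and 0.17 ± 0.06). Imprinted growth regulators, among them Dlk1 itself, numbered 22, of which 14 were lower and 1 was higher (68.2% called, median -0.42, with 12 lower and 0 higher without the animal as a block, and 13 lower and 0 higher without the Dlk1- Sca1+ array of animal 1). The noncoding RNAs of the Dlk1 locus were lower, with Meg3 at 12.23, 12.25 and 12.20 against 12.71, 12.81 and 12.69 (-0.51 ± 0.06, on 10 of 10 probe sets), Rian differing by -0.74 ± 0.07 and Mirg by -1.15 ± 0.07. These lie in 1 imprinted cluster. The growth factor gene Igf2, at another imprinted locus, differed by -1.0 ± 0.06, Zdbf2 by -1.42 ± 0.09 and Magel2 by -1.39 ± 0.14.

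Chemokine and complement genes were mixed, with 9 of 45 higher and 7 lower (35.6% called, median -0.04). Ccl19, a ligand that guides dendritic cells and T cells, was at 9.42, 9.51 and 9.34 against 7.30, 7.29 and 7.52 (2.05 ± 0.10, 4.15-fold). The interleukin 6 receptor gene Il6ra was higher by 1.90 ± 0.12, Ccl7 by 1.44 ± 0.10 and Cxcl12 by 0.94 ± 0.08, while the complement gene C2 differed by -1.14 ± 0.24. Axon guidance genes were more often lower, with 6 of 60 higher and 22 lower (46.7% called, median -0.15). Sema3g, a secreted semaphorin, was the largest exception, at 9.77, 9.95 and 9.68 against 7.35, 7.43 and 7.56 (2.35 ± 0.10, 5.11-fold). The guidance receptors and their relatives Epha4, Rgmb and Unc5b differed by -1.77 ± 0.20, -1.46 ± 0.08 and -1.28 ± 0.14.

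Cell state lists were called near or below the rate of all genes. Of 39 S phase and mitosis genes, 2 were higher and 1 lower (7.69% called, against 24.0% of all genes), with a median of 0.01, or 1 higher and 3 lower without the Dlk1- Sca1+ array of animal 1. Mki67, a marker of cycling cells, differed by -0.04 ± 0.13 (95% interval -0.33 to 0.25). The immediate early list, at 25.0% called, had 2 of 24 higher and 4 lower (median 0.02), and 1 higher and 3 lower both without the animal as a block and without the Dlk1- Sca1+ array of animal 1. Fosl1, an AP-1 subunit, was at 10.44, 10.09 and 9.92 against 8.50, 8.42 and 8.44 (1.70 ± 0.11), and Nr4a2 differed by -1.27 ± 0.06. In the interferon list 3 of 27 were higher and 2 lower (18.5% called, median 0.01), with 1 higher and 1 lower without the animal as a block and 5 higher and 1 lower without the Dlk1- Sca1+ array of animal 1.

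**Figure D3:**
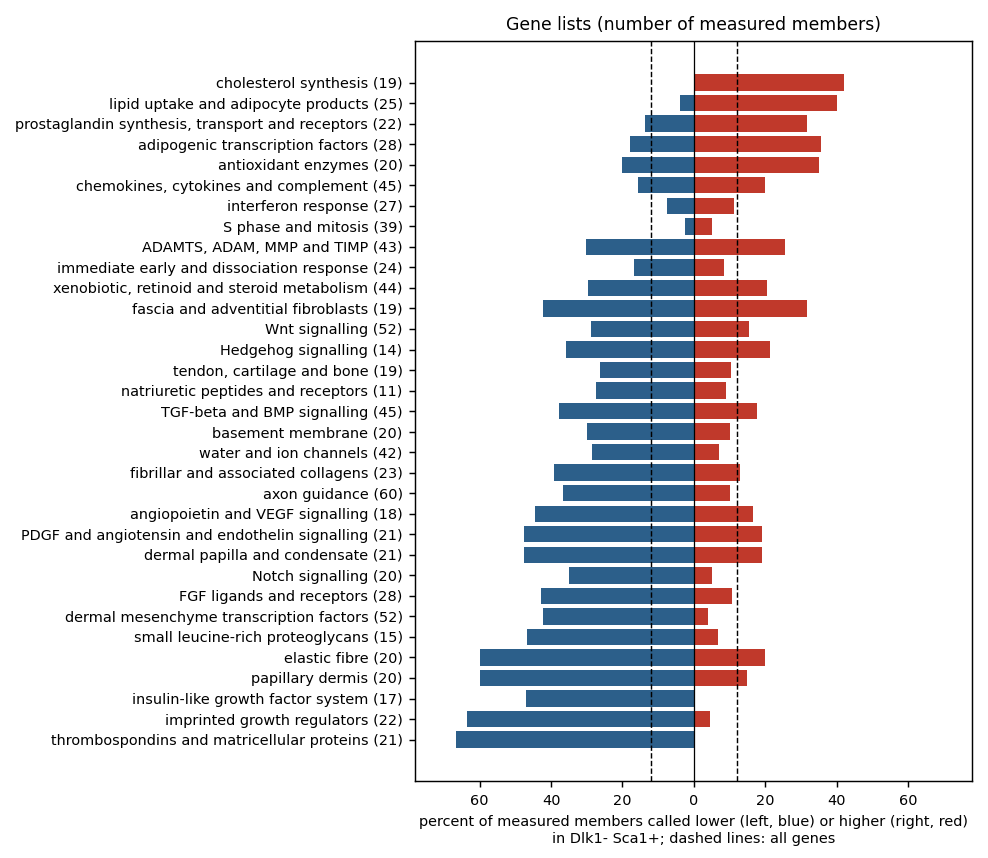
Bars give, for each gene list drawn, the percent of measured members called lower (blue, to the left) and higher (red, to the right) in Dlk1- Sca1+ cells, and dashed lines give the same over all 17097 genes (12% and 12.1%). The sorting genes, the genes Adamts18, Slco2a1, Tek and Thbs4, and the lists of cell type markers are not drawn. The dashed lines include dim genes, which were called less often. The number of measured members stands after each name. Bars for lipid uptake and cholesterol synthesis lie mainly to the right, and those for matricellular proteins and imprinted genes mainly to the left.

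Dlk1+ Sca1+ cells, which share the Sca1 gate with one side and the Dlk1 gate with the other, show at which step a gene differed. The comparisons share arrays with the main one, so that their values are set side by side. In Dlk1+ Sca1+ against reticular cells 2135 genes were called (12.5%), and in Dlk1- Sca1+ against Dlk1+ Sca1+ cells 1897 (11.1%). Some genes differed between Sca1+ and reticular cells and hardly between the Sca1+ subsets. Ly6c1 was at 10.18 ± 0.06 in Dlk1+ Sca1+ cells, 3.65 ± 0.12 above reticular cells, and Dlk1- Sca1+ cells differed from it by -0.39 ± 0.12 (adjusted p = 0.0729). Bmper differed by 3.23 ± 0.14 and -0.13 ± 0.14 in the same order, Serpina3n by 2.83 ± 0.14 and -0.18 ± 0.14, Efemp1 by 2.40 ± 0.11 and 0.30 ± 0.11, and Lpl by 1.43 ± 0.10 and -0.02 ± 0.10. For each of these the first difference was called and the second was not.

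Other genes were called at the step between the Sca1+ subsets and not at the step from reticular cells. Sema3g was at 7.23 ± 0.31 in Dlk1+ Sca1+ cells, where the difference from reticular cells of -0.22 ± 0.10 was not called, and Dlk1- Sca1+ cells were 2.57 ± 0.10 above them (adjusted p = 1.34e-06). Fam78b was 0.29 ± 0.23 from reticular cells and 2.38 ± 0.23 at the second step, and Aqp1 0.62 ± 0.19 (adjusted p = 0.059) and 2.13 ± 0.19. Aqp1 was uneven in Dlk1+ Sca1+ cells, at 8.16, 9.09 and 7.81. Mean levels of keratinocyte markers on these arrays were 6.97, 7.35 and 6.59, and those of endothelial markers 6.18, 6.68 and 6.32. Both were highest in animal 2, and their part in the step values was not tested. Among lower genes, Nrk differed by -0.01 ± 0.16 and then by -2.91 ± 0.16, Kcnj8 by -0.15 ± 0.12 and then by -2.42 ± 0.12, and Igf1 by -0.05 ± 0.09 and then by -1.08 ± 0.09. Sod3 was called in opposite directions, 0.54 ± 0.11 higher in Dlk1+ Sca1+ than in reticular cells and -3.35 ± 0.11 from there to Dlk1- Sca1+ cells. Aldh1a1 had the same pattern, with 0.79 ± 0.15 and -2.01 ± 0.15, and Rarres1 the reverse, with -3.26 ± 0.16 and 1.91 ± 0.16.

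The 4 marker genes were graded. Adamts18 differed by 1.47 ± 0.15 and 1.95 ± 0.15 at the 2 steps, Slco2a1 by 1.48 ± 0.08 and 1.63 ± 0.08, Tek by 1.26 ± 0.11 and 1.64 ± 0.11, and Thbs4 by -2.72 ± 0.15 and -2.57 ± 0.15, and each of these differences was called. Pparg differed by 1.85 ± 0.09 at the first step and by 0.58 ± 0.09 at the second. Itga8 and Wnt5a were low in both Sca1+ subsets. Itga8 differed by -2.79 ± 0.14 at the first step and by -0.15 ± 0.14 at the second, and Wnt5a by -2.24 ± 0.20 and 0.18 ± 0.20. Of the 15 leading genes in each direction, 13 higher and 13 lower were called at the first step, and 11 higher and 13 lower at the second. Over all genes 12.5% were called at the first step and 11.1% at the second. The leading genes were picked for a large main difference, which is the sum of the 2 steps. High counts among them were thus built in by the choice. The first step is Dlk1+ Sca1+ minus reticular and the second Dlk1- Sca1+ minus Dlk1+ Sca1+.

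**Figure D4:**
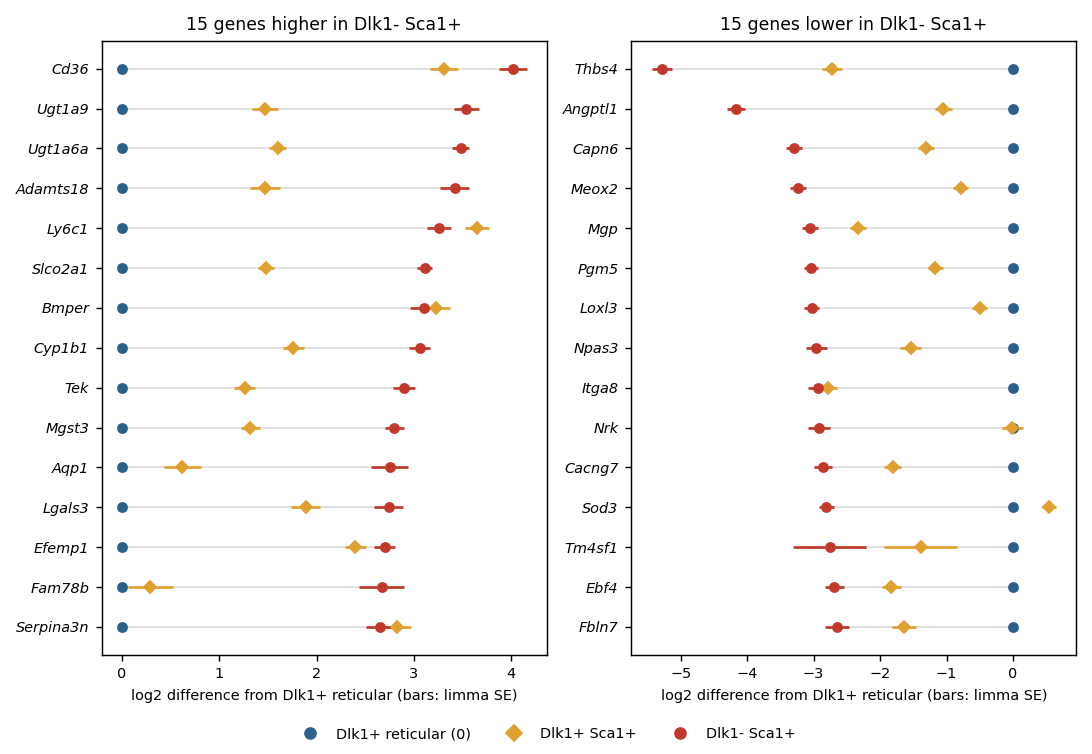
For the 15 genes with the largest differences in each direction, points give the log2 difference from Dlk1+ reticular cells (blue, at 0) of Dlk1+ Sca1+ cells (orange) and Dlk1- Sca1+ cells (red), with bars for limma's SE. Orange lies near red for Bmper and Itga8, near 0 for Fam78b and Nrk, and between for Tek and Thbs4.

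The keratinocyte check of the Dlk1- Sca1+ array of animal 1 showed a raised array. Over 33 measured keratinocyte markers the mean level was 8.62 on that array and 6.76 and 6.72 on the arrays of animals 2 and 3. In reticular cells the means were 7.16, 6.37 and 6.40, so that animal 1 was also the highest there, by less. Of the 33 markers, 31 were highest on the Dlk1- Sca1+ array of animal 1, and 24 were at least 1 above both other arrays of the population. Krt5, a keratin of basal keratinocytes, was at 12.10, 9.86 and 9.83 in Dlk1- Sca1+ cells and at 11.09, 8.60 and 9.21 in reticular cells. Krt14, its partner, was at 10.79, 7.80 and 8.05 against 9.19, 7.32 and 7.42, Trp63, a transcription factor of stratified epithelium, at 10.08, 7.16 and 6.94 against 8.33, 6.69 and 6.85, and Epcam, which the gate sorted against, at 8.62, 6.07 and 5.97 against 6.42, 5.73 and 5.84. None of these 4 passed. The same array was raised for hair follicle genes. Tchh, trichohyalin of the inner root sheath, was at 8.31, 4.49 and 4.62 against 5.82, 5.33 and 5.51, and Prr9, the gene furthest above the other arrays, at 9.52, 5.36 and 5.27 against 6.29, 5.43 and 5.59. Tchh and Prr9 were chosen after their values were seen.

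Of the 166 genes raised on that array 18 were called, 7 of them higher, and 17 of the 18 were also called without the array. These genes were picked for a wide spread within a population, so that their low share of calls says nothing about the array's effect on other calls. In the keratinocyte list 3 of 33 genes were higher and none lower (9.09% called), with a median of 0.71, and 2 were higher without the array. Krt10, a keratin of differentiated keratinocytes, was at 10.11, 8.58 and 9.11 against 7.64, 7.46 and 7.54, and differed by 1.72 ± 0.27, or by 1.51 without the array (adjusted p = 0.00452). Krt10 thus stood higher in each animal. All 30 of the leading genes above were called without that array, among them Adamts18 (3.22), Slco2a1 (3.11), Tek (2.92) and Thbs4 (-5.36). These 30 were chosen for large differences with that array included. Keeping the call was thus close to fixed in advance and says little about the array's effect.

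**Figure D5:**
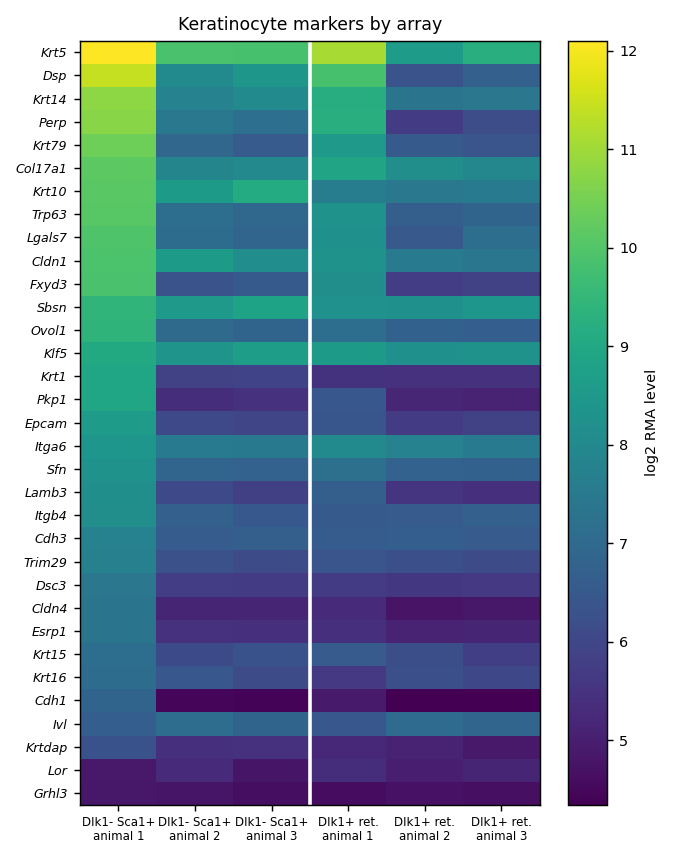
Colours give the log2 RMA level of the 33 measured keratinocyte markers (rows, ordered by level on the first array) on the 6 arrays (columns). The Dlk1- Sca1+ column of animal 1 is the brightest, with a mean of 8.62, followed by the reticular column of animal 1 at 7.16, and the other 4 columns have means of 6.37 to 6.76.

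Markers of other cell types stood as follows, and their part in the results above was not tested. Of 17 skeletal muscle markers 9 were lower and 0 higher (52.9% called), and 10 were under 6.59 on all 6 arrays. The list mean was 5.6 to 5.75 in Dlk1- Sca1+ cells and 6.19 to 6.28 in reticular cells, so the ranges did not overlap. Acta1, skeletal muscle actin, was at 5.70, 5.59 and 5.56 against 8.57, 8.20 and 7.71, and Tnnc2, a fast troponin, at 6.46, 6.44 and 6.35 against 9.11, 8.72 and 8.31. The regulators Myod1 and Myog, which define muscle cells, were at 6.30 to 6.65 and 4.96 to 5.36 on the 6 arrays, at or near the control range, and did not pass. Of 13 pericyte and smooth muscle markers 6 were lower and 0 higher (46.2% called), with list means of 7.19 to 7.28 against 7.83 to 8.26. They included Kcnj8, Notch3 and Myl9 (-0.94 ± 0.13), and Myh11 was uneven in reticular cells, at 8.05, 9.35 and 7.09, and was not called without the array of animal 2 from either population (adjusted p = 0.0646 at most). With all arrays, Myh11 was called on 1 of its 2 probe sets. Acta2 did not pass (0.21 ± 0.10), and neither did Rgs5, a pericyte marker at 7.93, 9.52 and 6.54 in reticular cells (-1.25 ± 0.63).

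Of 22 endothelial markers 7 were lower and 1, Tek, was higher (36.4% called), with list means of 6.21 to 6.44 against 6.34 to 6.53, which overlapped. Cdh5, a defining junction protein of endothelium, was at 7.05, 5.85 and 5.58 against 6.85, 6.63 and 6.21 and did not pass. Kdr, a VEGF receptor, differed by -0.90 ± 0.17 (adjusted p = 0.00271, and 0.0635 without animal 3). Vwf was at 5.14 to 5.31 and 5.24 to 5.71 and did not pass. Immune markers had list means of 5.56 to 5.68 against 5.42 to 5.67, with 2 of 23 higher and 1 lower (13% called), and 0 higher without the Dlk1- Sca1+ array of animal 1. On all 6 arrays 19 of the 23 were under 6.59, among them both genes called higher, Cd3e and C1qb. Of 10 mast cell and erythroid markers 0 were called, but 3 were at least 1 above the other arrays of the population on the Dlk1- Sca1+ array of animal 1. Among them Cpa3, a mast cell protease, was at 7.05, 4.59 and 4.71 against 4.68, 4.83 and 4.88, and Mcpt4 at 5.56, 4.04 and 4.10 against 4.0, 4.02 and 3.90. Melanocyte and Schwann markers had list means of 7.15, 6.42 and 6.14 against 6.30, 6.16 and 6.15, with 2 of 12 higher and 1 lower (25.0% called). Dct, an enzyme of melanin synthesis, was at 8.98, 7.22 and 6.67 against 6.83, 6.13 and 6.08 (adjusted p = 0.0137, and 0.0704 without the animal as a block, and up to 0.0844 with 1 array or animal left out), and Ngfr, the low-affinity nerve growth factor receptor, differed by -1.70 ± 0.12.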

How the data were processed

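Per the labels' protocols, each array took RNA of 4500 cells after 21 cycles of amplification, with 8 µg of labelled cDNA. The deposited values are on a log2 scale, and the submitters' processing notes name RMA and affy without versions. No genome build is stated in these sources. RMA corrects background, equalizes the arrays' distributions and summarizes probes, and it understates differences of dim probe sets. The deposited table held 45141 probe sets, of which 104 were controls, 28898 had 1 gene symbol in the platform annotation, 551 had several and 15588 (34.61%) are unnamed here. Those of 28689 matched RefSeq, and 0 symbols changed. The probe set with the highest mean per gene was kept, which left 17097 genes, and no dim genes were removed. Values ran from 3.30 to 13.27, array medians from 6.21 to 6.34, and sorted columns differed by at most 0.17, so no further normalization was applied. For arrays, their number, 3 per population, limits the precision.

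All 12 arrays entered 1 limma 3.58.1 fit (R 4.3.3) with population coefficients and the animal as a block, 6 residual and 4.263 prior degrees of freedom. Each contrast was adjusted on its own by Benjamini-Hochberg, and genes were called under 0.05. The pairing comes from the labels, which number the arrays by biological replicate of 3 littermates. Deviations from population means correlated between arrays of 1 animal at 0.086 to 0.432 over 18 pairs, of which 17 were above 0.1. The script was tested on simulated data. Text names the sorting genes, the 4 markers, the 15 called genes per direction with the largest difference and no overlap, and up to 4 called members per gene list, and it gives other list members as values. Genes with only clone or model names were left out. The members and lists were chosen with earlier results of these data known. Alternatives were no block, 6 arrays alone, 2 other scalings, the mean of probe sets, a filter on dim genes, array weights, a minimum difference of 1, and leaving out each animal or array.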

Additional observations from a re-analysis of the deposited data

How the results depend on the processing

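Without the animal as a block, 3104 genes were called (1600 higher and 1504 lower), against 4110 with the pairing, and with 6 arrays alone and the block 2943. With 6 arrays alone and no replicate block, 2413 were called (1226 and 1187). At a difference of at least 1 on the log2 scale, 465 passed (186 and 279). Leaving out 1 array or 1 animal gave 2442 to 3379 calls, 1132 to 1845 higher and 1056 to 1684 lower. Without animal 2, 2442 genes were called (1386 higher and 1056 lower), and without animal 3, 2446 (1132 and 1314). Median centring of the arrays gave 2296 higher and 1765 lower genes, so that 56.5% of calls were higher against 50.2%. In the counts that follow, named genes are the 164 chosen by the rule above. List members given only as values, such as Ahr and Angpt1, are outside these counts. No called named gene changed direction in any alternative run, while Dpp4, Pecam1, Ptprc and Cpa3, which were not called, changed sign in at least 1. Of 154 called named genes, 133 kept the call in every alternative and 21 lost it in 1 or more, 9 of these only when an array or animal was left out. Without the block 6 named genes lost their call, Ccne1, Hspa1b, Ifit2, Stat2, C1qb and Dct, and no other call among the 164 changed. Levels under about 6.59, the highest control probe set, limit how small a level can be read.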
